A study of Homo sapiens with 12 samples.

Results

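FAT1 is 1 gene (ENSG00000083857) of the 58302 in the authors' gene table, and it held 8 of the 2364 differential ac4C peaks in their peak table. The gene was selected on its number of deposited peaks, which only AHNAK and MALAT1 exceeded, so the number and the signs of its peaks are given as a description with no test. All libraries came from DLD1 cells at passage 5, a long-established line of human colorectal carcinoma. The cells carried shNC, a non-targeting short hairpin RNA, or shNAT10, a hairpin against NAT10, the acetyltransferase that makes N4-acetylcytidine (ac4C) from cytidine in RNA. From each hairpin, 3 input libraries of fragmented total RNA and 3 libraries immunoprecipitated with an anti-ac4C antibody (IP) were labelled, 12 in all. The sources used here do not say whether replicates were separate cultures, or whether a hairpin line was 1 clone, and p-values measure only the spread between these samples. Gene levels covered the 6 input libraries, and IP levels per library were not analysed here.

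FAT1 encodes a very large atypical cadherin, a single-pass membrane protein with a long extracellular row of cadherin repeats and a short cytoplasmic tail. Its tail is known to bind actin regulators of the Ena/VASP family and to feed into the Hippo pathway, the kinase cascade that restrains the growth regulator YAP1. ac4C is best known from ribosomal and transfer RNA, and antibody-based mapping has placed it in messenger RNA as well, with coding sequence among the sites reported.

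The authors' deposited table placed all 8 FAT1 peaks in coding sequence (CDS), on the minus strand of chromosome 4 in GRCh38. The RefSeq gene runs over chr4:186587794-186726696, 138.903 kb with introns, and contained 8 of 8 peaks. The peaks are numbered here from 5′ to 3′ along the transcript, which on the minus strand means from high to low coordinate. Peak 1 spanned chr4:186636672-186663383 in 3 blocks, and peak 2 was a single block at chr4:186620493-186620882. Peak 3 lay at chr4:186619924-186620074 and peak 4 at chr4:186619355-186619534. Peak 5 spanned chr4:186613154-186617051 in 3 blocks. Peak 6 lay at chr4:186603755-186603935, peak 7 at chr4:186596714-186596894 and peak 8 at chr4:186588831-186589161. No peak overlapped another, and peaks 1, 2 and 5 each had a summed block length of 390 nt.

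On the genomic scale, introns included, the peaks were crowded toward the 3′ part of the gene. The 5′ edge of peak 1 lay 63.3 kb from the 5′ end of the gene, and its blocks of 243, 62 and 85 nt were spread over 26712 nt. The other 7 peaks began within 40 kb of the 3′ end and fell inside a stretch of 32.1 kb. Peaks 2, 3 and 4 stood closest together, with 418 nt between peaks 2 and 3 and 389 nt between peaks 3 and 4. Peak 8 ended 1037 nt from the 3′ end of the gene. Blocks of all 8 peaks summed to 2194 nt, 13.6% of the 16177 nt that the FPKM values imply as the length counted for FAT1. Because these distances include introns, they do not give positions along the spliced transcript, and the layout of the exons was not examined. They describe where the authors called differential peaks, and regions with ac4C that did not differ are outside that table.

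The deposited log2 fold change took both signs within the transcript, at 3 negative and 5 positive peaks. The deposited table does not state which hairpin is the numerator, so the signs show opposite change and not which hairpin was higher. Peak 8, nearest the 3′ end, had the most negative value in the authors' deposited table for FAT1, -4.27, with a log10 FDR of -34.8. Peak 3 had -4.20 (log10 FDR -4.65) and peak 4 had -2.76 (log10 FDR -11.8). Just upstream of this pair, peak 2 had 1.16 (log10 FDR -34.7), so the sign changed across the 418 nt between peaks 2 and 3. Peak 6 had the highest value, 2.64 (log10 FDR -29.0), followed by peak 1 at 2.60 (log10 FDR -243). Peaks 5 and 7 had 0.664 and 0.831, with log10 FDRs of -8.82 and -4.61.

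Changes at FAT1 were small for that table, which lists only peaks that passed the authors' test. The median size of the deposited log2 fold change, regardless of sign, was 2.62 over the FAT1 peaks and 4.81 over all 2364 peaks. It was 3.65 over the 114 peaks of other genes with a mean input FPKM of 100 or more, which include 13 MALAT1 peaks with a median of 7.63. Even the largest FAT1 value, at peak 8, exceeded in size only 38.6% of the deposited peaks. Values between -1 and 1 were listed for 2 of the 8 FAT1 peaks and for 48 peaks (2.03%) in the whole table. The FDR of peak 1 was nevertheless smaller than that of 99.2% of the deposited peaks, and those of peaks 2 and 8 smaller than that of 92.3% of them.

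**Figure D1:**
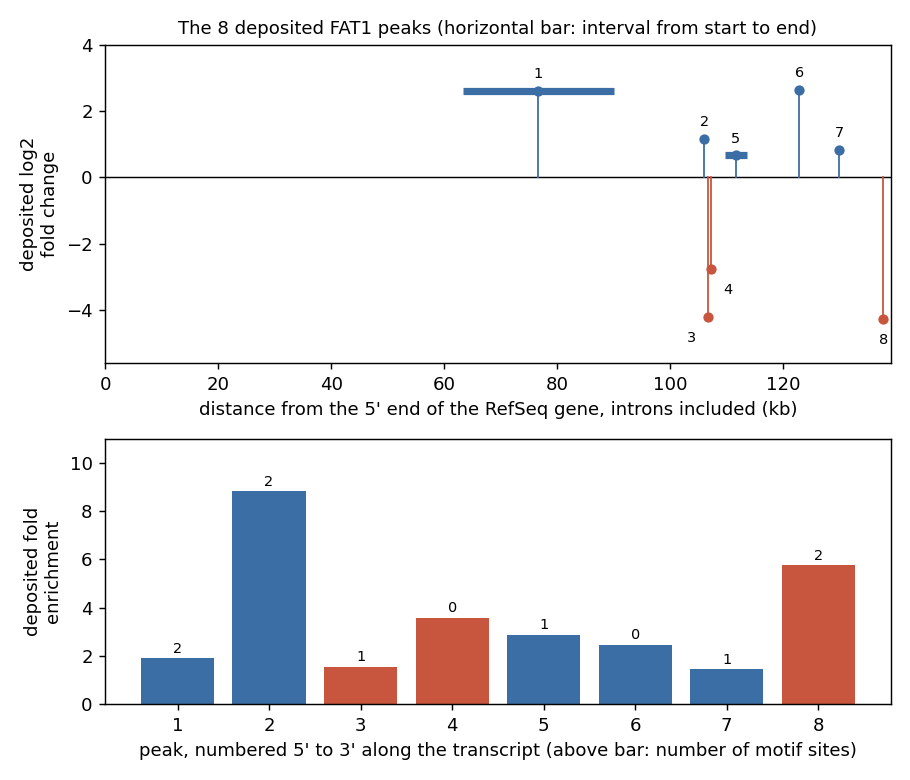
Upper panel: deposited log2 fold change of each FAT1 peak against its distance from the 5′ end of the RefSeq gene in kb, with a horizontal bar from start to end of the interval. Lower panel: deposited fold enrichment of the same peaks, with the number of motif sites above each bar. Negative peaks (3, 4 and 8) are red and positive peaks blue; peak 2 has the highest fold, 8.84.

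Fold enrichment, the authors' measure of peak height, was low at FAT1. In the authors' deposited table, it was highest at peak 2 (8.84) and peak 8 (5.77). Peak 4 had 3.58, peak 5 had 2.89, peak 6 had 2.46 and peak 1 had 1.90. The lowest were peak 3 at 1.55 and peak 7 at 1.45. The median was 2.68, against 10.5 over all deposited peaks and 9.86 over the 1398 CDS peaks of other genes. The tallest, peak 2, had a log2 fold change of 1.16 and the next, peak 8, had -4.27, while the lowest, peaks 7 and 3, had 0.831 and -4.20. The calls of the taller peaks were the strongest, with a log10 p of -1870 at peak 2 and -299 at peak 8, except that peak 5, of fold 2.89, had -603. The lowest folds had the weakest calls, with a log10 p of -13.4 at peak 3 and -20.2 at peak 7.

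Deposited folds were generally lower in abundant transcripts, and FAT1 was abundant. Across the 2364 deposited peaks, fold and mean input FPKM had a Spearman correlation of -0.29, a description over peaks that share libraries. Over peaks of other genes, the median fold was 15.6 at a mean input FPKM under 1, 14.7 from 1 to 10, 7.45 from 10 to 100 and 4.52 at 100 or more. In that last band, with 114 peaks, 6 of the 8 FAT1 peaks lay below the median. The band was unlike FAT1 in part: 28.9% of its peaks were CDS, and 13 were MALAT1 peaks, with a median fold of 27.1. Whether the fold is scaled to input was not stated, and the part of input level in the low FAT1 folds was not tested.

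**Figure D2:**
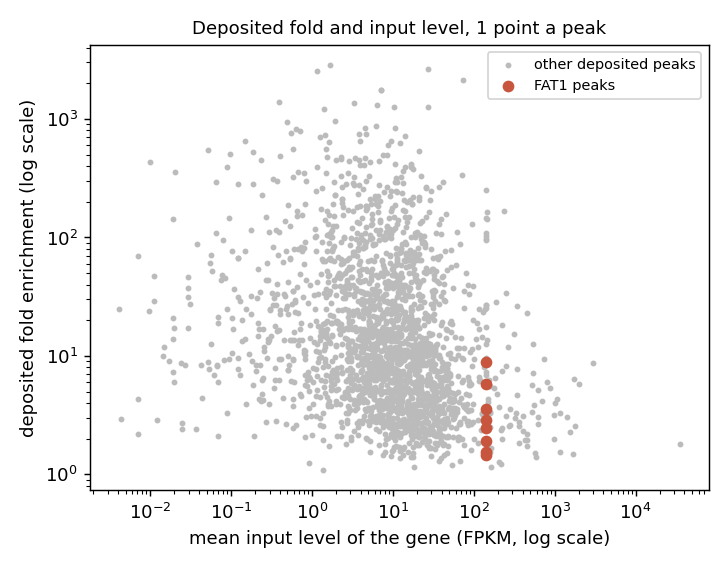
Deposited fold enrichment against the mean FPKM of the gene in the 6 input libraries, both on log scales, 1 point a peak; 108 peaks whose gene was at 0 in every input library are not drawn. The FAT1 peaks (red) stand at a mean of 140.2 FPKM with folds of 1.45 to 8.84, in the lower part of the cloud.

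The authors listed the positions of a single motif, CXXCXXCXXCXX, in which X is any base, and the number of such sites in each peak. FAT1 had 9 sites, with 2 each in peaks 1, 2 and 8, 1 each in peaks 3, 5 and 7, and 0 in peaks 4 and 6. So 6 of 8 FAT1 peaks (75%) had a listed site, against 62.6% of all deposited peaks and 64.5% of CDS peaks in other genes. Per 1000 nt of block length, FAT1 had 4.10 listed sites, against 5.62 over all peaks and 6.04 over CDS peaks of other genes. These shares and densities count every listed site, including those that lay outside the blocks. Over the 114 peaks of other genes at a mean input FPKM of 100 or more, the density was 3.97, and 50.9% had a site. Only 28.9% of those peaks were CDS, and 13 of them were MALAT1 peaks, at 0.20 sites per 1000 nt. A site was present in 2 of the 3 negative and 4 of the 5 positive FAT1 peaks. The taller peaks 2 and 8 both had 2 sites, and so had peak 1, one of the lower peaks. The genes with more peaks had fewer sites: the 16 AHNAK peaks had 0 sites, and the 13 MALAT1 peaks had 1.

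The sites stood at different spacings. In peak 8 they were listed at positions 186589064 and 186589042, 22 nt apart, and in peak 2 at 186620827 and 186620530, 297 nt apart. Peak 3 had its site at 186619930, 6 nt from an edge of the peak, and peak 7 at 186596861. In the interrupted peaks the positions did not always fall in a block. Of the sites of peak 1, the one at 186636685 lay in a block, while the one at 186663278 lay 21 nt outside the nearest block. The only site of peak 5, at 186615979, lay 1026 nt from any block. Counting only sites inside blocks, FAT1 had 7 of 9, and peak 5 had none, so the FAT1 share and density above would be lower. In the whole table, 99.4% of sites in single-block peaks and 68.3% of sites in peaks with several blocks lay in a block. The sources used here do not say how sites were placed across spliced intervals, and the counts for peaks 1 and 5 are less certain than the others.

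Few genes had as many peaks as FAT1 in the authors' deposited table. Of 1930 gene symbols with a peak, 2 had more than FAT1, 2 had 5 peaks (DDB1, a DNA damage recognition protein, and PRKDC, the catalytic subunit of DNA-dependent protein kinase) and 13 had 4. AHNAK, a giant scaffold protein, had both signs like FAT1, at 7 negative and 9 positive peaks, with a median fold of 4.87. MALAT1, a nuclear long noncoding RNA, had 13 positive peaks and a median fold of 27.1. DDB1 had 4 negative and 1 positive, and all 5 peaks of PRKDC were negative. Both signs were also listed for most of the 13 genes with 4 peaks, such as CLTC and DSP with 2 of each. HSP90AA1 and MACF1 had 4 positive peaks, and KIAA0100 had 4 negative. Against the length implied by the FPKM values, the deposited peaks came to 4.95 per 10 kb in FAT1, 8.22 in AHNAK, 14.8 in MALAT1, 3.58 in DDB1 and 3.24 in PRKDC. That length is the one counted for the gene and may differ from the length of its mRNA. The order of these values depends on it. FAT1 and MALAT1 had similar mean input levels, 140.2 and 143.3 FPKM, while AHNAK, DDB1 and PRKDC had 32.1, 37.3 and 41.4. HSP90AA1, a coding gene of like level (158.6 FPKM), had 4 CDS peaks with a median fold of 3.305 (2.53 to 5.61). These values were not tested against each other, since peaks of 1 gene share their libraries.

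The labels were first checked against the targeted gene, and the shNAT10-labelled input libraries went partly against theirs. NAT10 had FPKM 1.24, 3.95 and 2.89 in the shNC inputs, and 0, 28.1 and 31.4 under the shNAT10 label. Every difference below is therefore that of the label. The same limit holds for the deposited log2 fold changes, which compare libraries under the same labels. FPKM is the number of fragments scaled to gene length and library size, and the library denominators recovered from the values were 3284599 to 3426872 fragments in shNC and 1197889 to 1498313 under the shNAT10 label. The simple-epithelium markers that define the DLD1 cell type were present, with KRT8 at 3112 to 5866 FPKM, but KRT20 was above 0 in 1 of 6 libraries. Summed epithelial markers were 5054 to 5405 in shNC and 8125 to 8583 under the shNAT10 label, a sum carried mostly by KRT8. The list did not move one way. Of 9 tested members 4 had a log2 difference above 0 and 5 below (median -0.39), and 0 passed limma (0.19% over all genes tested). Groups did not overlap for 5 of the 9, against 1011 of all 10517 genes tested (9.61%). Of those without overlap, EPCAM and CDH17 were lower under the shNAT10 label, and KRT8, KRT18 and KRT19 were higher. Fibroblast and muscle markers summed to 0 to 3.81 in shNC and 7.40 to 76.9 under the shNAT10 label. Of these markers, COL1A1, COL1A2, COL3A1 and DCN were at 0 in at least 4 libraries each. The largest values under the shNAT10 label were TAGLN in replicate 1 (68.9), ACTA2 in replicate 2 (21.98) and DCN in replicate 3 (3.18). Of 3 tested members 0 passed limma, and groups did not overlap for 1, TAGLN. TAGLN was at 0 in every shNC library and at 68.9, 2.04 and 1.49 under the shNAT10 label. PDGFRB was at 0 in every shNC library and at 7.97, 0.561 and 0 under that label. Endothelial, leukocyte and neural markers reached no more than 0.241, 0.199 and 3.29 in any library. The part of these markers in the results was not tested. In bulk samples, fewer cells of a type and less RNA per cell cannot be told apart.

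FAT1 was strongly expressed in all 6 input libraries. It was at FPKM 164, 125 and 158 in shNC replicates 1, 2 and 3. Under the shNAT10 label it was at 160, 54.7 and 180. The groups overlapped: 2 of 3 shNAT10-labelled libraries lay within or above the shNC range, and replicate 2 lay below every other library. Behind these levels stood 8990, 6633 and 8750 recovered fragments in the shNC replicates. The shNAT10 label had 3588, 1326 and 3491. Fragments can include PCR copies and do not equal molecules. Among protein-coding genes FAT1 ranked 132, 164 and 145 in shNC and 207, 626 and 183 under the shNAT10 label.

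**Figure D3:**
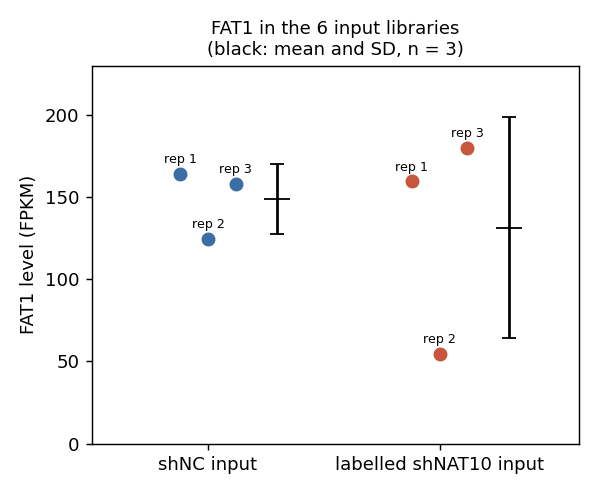
FAT1 level in FPKM in each input library, with the replicate number at each point and the mean and SD (n = 3) of each group in black. The 3 shNC libraries lie between 125 and 164, and the shNAT10-labelled libraries at 160, 54.7 and 180.

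No difference in FAT1 input level between the libraries labelled shNC and shNAT10 was detected. The shNC mean was 149 ± 21.2 FPKM (SD, n = 3). Under the shNAT10 label it was 131 ± 67.3 (SD, n = 3). On the log2(FPKM + 1) scale the difference, shNAT10 minus shNC, was -0.34 (SE 1.01, 95% interval -2.33 to 1.64; limma adjusted p = 0.92). The exact two-sided permutation test over the 6 libraries gave p = 0.9, where 0.1 is the smallest it can give. limma takes its SE mostly from genes of like level, and the spread of FAT1 alone would give an SE of 0.55. The interval runs from a 0.200-fold to a 3.12-fold level, and with 3 libraries a group, changes within that range remain compatible with the data. The direction rested on 1 library: without shNAT10 replicate 2 the difference was 0.20, and with shNAT10 replicates 2 and 3 both left out, since NAT10 was high there, it was 0.11. The median difference over all 10517 genes tested was -0.49, and 20 of them passed (0.19%), none of them protein-coding. At an unadjusted p under 0.05, 178 of the 8140 coding genes tested by limma differed.

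FAT1 had the greatest length implied by the FPKM values among coding genes of its level. At that level, genes of greater implied length generally had smaller spreads between replicates. Compared were 131 other coding genes with a mean FPKM within 1.5-fold of FAT1. Lengths implied by the FPKM values had a median of 2794 nt, and 0 genes exceeded the 16177 nt of FAT1. The pooled SD within groups, on the log2(FPKM + 1) scale, was 0.68 for FAT1, against a median of 0.84 over the others, and 43 of 131 had a smaller one. Across these genes, length and SD had a Spearman correlation of -0.66, a description over genes of the same libraries. Genes at or above the upper quartile of length had a median SD of 0.58, and those at or below the lower quartile 1.92. The SD of FAT1 rested largely on shNAT10 replicate 2, since the other 5 libraries lay between 125 and 180 FPKM.

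**Figure D4:**
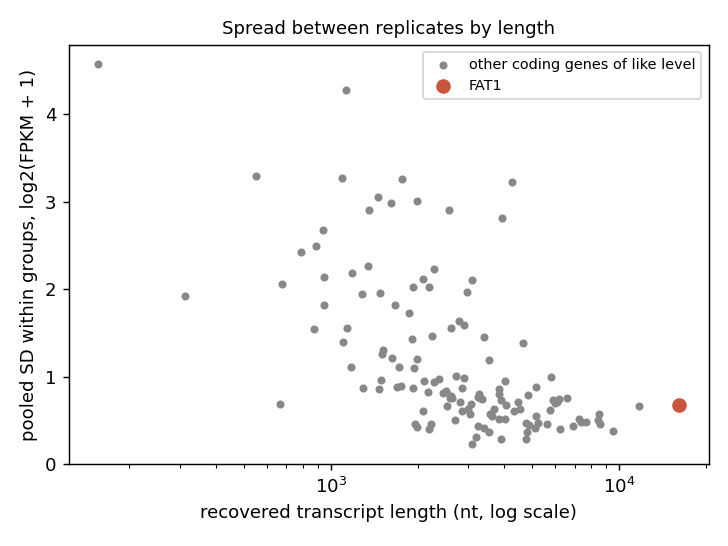
Pooled SD of log2(FPKM + 1) within groups against the length implied by the FPKM values (log scale), for FAT1 (red) and 131 coding genes of like level (grey). FAT1 is at the far right with an SD of 0.68, and SDs above 2 occur at shorter lengths.

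The genes with the pattern most like FAT1 are given as a description, since choosing them by likeness to FAT1, which was lowest in shNAT10 replicate 2, favours genes low in that library. Of 1983 other coding genes above 0 in all 6 libraries, SP1, a transcription factor of GC-rich promoters, had the highest Pearson correlation of log2(FPKM + 1) with FAT1 over the 6 libraries (0.99). It was at 8.67, 6.82 and 7.58 in shNC and at 10.6, 0.413 and 11.4 under the shNAT10 label. NSD2, a histone methyltransferase, correlated at 0.98, with 17.7, 4.63 and 9.13 in shNC and 10.0, 0.0337 and 12.4 in the others. TGOLN2, a trans-Golgi membrane protein, also had 0.98, with 12.9, 4.77 and 18.9, then 16.2, 0.0943 and 16.7. These correlations are over 6 libraries and were picked as the highest of many; 15 genes exceeded 0.95. SP1, NSD2 and TGOLN2 had 1 deposited peak each.

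Of the 4 FAT cadherins, only FAT1 was above 1 FPKM in any library. FAT2 was at 0.0813 FPKM in shNC replicate 1 and at 0 in the other 5 libraries, FAT3 at 0 in all 6, and FAT4 at 0.609 in shNAT10 replicate 3 and 0 elsewhere. DCHS1 and DCHS2, the Dachsous cadherins that bind FAT4, and FJX1, a kinase-like regulator of such binding, lay below the filter on low levels (a mean FPKM of 1). CELSR2, a cadherin of planar cell polarity, had the highest mean of the other members only through shNAT10 replicate 3 (0.787 FPKM without it, against 1.44 for its relative CELSR1), at 2.49, 0.666 and 0.662 in shNC and 0.117, 0 and 21.3 under the shNAT10 label. Of 9 listed members besides FAT1, 2 could be tested, 0 passed limma at an adjusted p under 0.05 (0 also at an unadjusted p under 0.05), and 0 had a deposited peak.

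Of the classical cadherins and catenins, which hold epithelial cells together, 7 of 8 were tested and 0 passed. CDH1, E-cadherin and the most abundant of them, was at 70.7, 39.5 and 24.5 in shNC and at 78.6, 50.8 and 66.4 under the shNAT10 label. Per length, on the FPKM scale, its level was below that of FAT1 in all 6 libraries, and the 2 were closest in shNAT10 replicate 2 (54.7 for FAT1). CDH1 had no deposited peak. CDH3, P-cadherin, was the only one of the list with peaks, and both were negative, with log2 fold changes of -5.27 and -3.30 in coding sequence in the authors' deposited table. Its input level in shNC was 6.16, 3.66 and 0 FPKM, against 1.04, 39.3 and 0.268 under the shNAT10 label.

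Of the cytoplasmic partners of FAT1, 5 of 6 were tested and 0 passed. VASP, which promotes actin filament growth, was at 34.1, 26.1 and 1.05 in shNC and at 3.00, 39.7 and 3.94 under the shNAT10 label. ENAH, a relative of VASP, was at 4.83, 0.0202 and 6.15, then 0.191, 2.09 and 14.7, and had 1 deposited peak in its 3′ UTR (log2 fold change 6.99). HOMER3, a scaffold protein, had 1 in coding sequence (-4.34), while its input level was 19.5, 0.0890 and 0 in shNC and 0 in all 3 others.

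Hippo pathway genes were at low and scattered levels, and such scatter was not particular to them. Of 17 kinases and scaffolds, 15 were tested, 0 passed, and 4 were above 0 in all 6 libraries. Over the whole gene table, 2399 of the 15014 genes above 0 in any input library were above 0 in all 6. MOB1A, a kinase activator, had the highest mean only through shNAT10 replicate 3 (5.47 FPKM without it, against 14.7 for TAOK1), and was at 0.184, 9.83 and 16.2 in shNC and at 0.112, 1.04 and 97.9 under the shNAT10 label. Of this list 6 genes had deposited peaks. In the authors' deposited table, the log2 fold change was 6.58 in STK4, a core kinase, and 0.986 in NF2, an upstream scaffold. It was -5.39 in MOB1A, -5.35 in AMOTL2, an angiomotin that binds YAP1, and -3.91 in TAOK1, an upstream kinase. TAOK2, a related kinase, had 8.08 in the 5′ UTR and -4.00 in coding sequence, both signs in 1 transcript as in FAT1.

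Of YAP1, the TEAD factors and their targets, 8 of 12 were tested and 0 passed. YAP1, the transcriptional effector of the pathway, was above 0 in all 6 libraries, at 15.7, 19.5 and 30.9 in shNC and at 16.5, 13.4 and 58.3 under the shNAT10 label (a difference of 0.15 on the log2 scale, SE 1.55, limma adjusted p = 0.983). Its single deposited peak, in coding sequence with 3 motif sites, had a log2 fold change of -4.32. CTGF, the secreted YAP1 target now named CCN2, had the highest mean of the list only through shNAT10 replicate 3 (4.82 FPKM without it, against 19.2 for YAP1), at 0, 11.8 and 0.873 and then 11.4, 0 and 237. Its peak in the 3′ UTR had 1.64.

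Over the 5 lists, 52 genes besides FAT1 were found in the gene table, 37 could be tested, and 0 passed limma in either direction (0 at an unadjusted p under 0.05). Over all genes tested 20 of 10517 passed (0.19%) and 389 had an unadjusted p under 0.05, so a count of 0 in a list of this size is no result about it. Their median log2 difference was 0.10, against -0.49 over all genes tested, and it was -0.27 at a pseudocount of 0.1 but 0.59 under quantile normalization. Groups did not overlap for 3 of the 37, CDH17, CTNND1 and WWC1, which is 8.11%, near the 9.61% found over all genes tested. Deposited peaks were found in 11 of the 52, with 1 or 2 in each gene. All 11 were among the 37 tested (29.7%), and of all 10517 genes tested 1616 had a deposited peak (15.4%), shares that were not tested against each other.

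**Figure D5:**
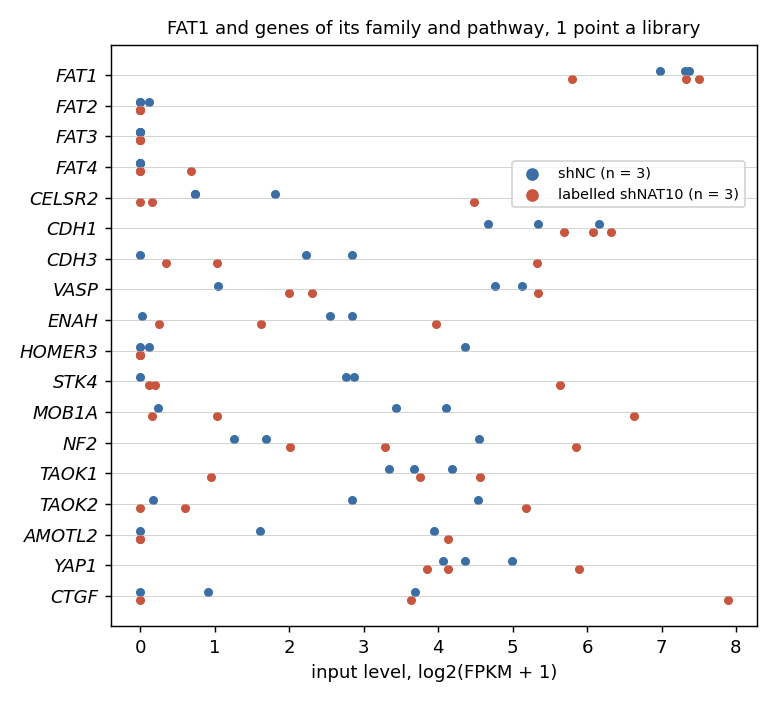
Input level as log2(FPKM + 1) of FAT1 and named genes of its family and pathway, 1 point a library, with shNC in blue and the shNAT10-labelled libraries in red (n = 3 each). The FAT1 points lie between 5.80 and 7.50, while FAT2, FAT3 and FAT4 are near 0 and most pathway genes scatter from 0 upward in both groups.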

How the data were processed

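The deposited gene table of the authors holds FPKM for the 6 input libraries, and a separate deposited table holds differential peaks. Columns named NC matched the shNC inputs by title, those named sh were taken as shNAT10, and 0 per-sample columns stayed unmapped. Per the file headers, the deposited peak table gives a p-value of the peak call, log10 p and FDR scores, a fold ratio, a differential log2 fold change and a count of motif sites. Per the submitters' processing notes, cutadapt 2.5, HISAT2 2.1.0 and HOMER 4.10.4 were used, with builds GRCh38 and GRCm38, and no role for each. The peak caller, the pooling of replicates and the counting tool are not given in the sources used here. Coordinates were read as GRCh38, because 2175 of 2190 peaks whose symbol is in RefSeq overlapped that gene, and as half-open, because size equalled end minus start in 1167 of 1167 single-block peaks. They are printed from 1. No genome sequence was used, so no peak sequence is shown and motif sites are those the authors listed.

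Levels were tested in limma 3.58.1 (R 4.3.3, trended eBayes) after log2(FPKM + 1), keeping genes whose mean FPKM reached 1, with Benjamini-Hochberg adjustment over all genes and a threshold of 0.05. The code was tested on simulated data with large changes, and calls were required only at a spread below that of these data. Fragments and lengths were recovered as whole numbers within 0.001, with scales from RefSeq lengths of small RNAs; this returned the RefSeq length of 13 of 13 mitochondrial mRNAs, which had also helped to choose each scale. FAT1 and the gene lists were chosen with earlier results of these data known. Named genes were the FAT paralogs, the member of highest mean FPKM of each list, members with a peak or past the test, and the 3 coding genes most correlated with FAT1. Libraries of the same replicate number did not deviate together: over genes, their departures from the group mean had correlations of 0.00, -0.02 and 0.01.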

Additional observations from a re-analysis of the deposited data

How the results depend on the processing

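The FAT1 input difference did not pass limma in any fit. It kept its negative direction under all planned settings that used the 6 libraries, from -0.62 on the TPM scale and -0.61 after quantile normalization to -0.34, and with the replicate block it was -0.34. Leaving out 1 library gave -0.65 to 0.20, and leaving out shNAT10 replicates 2 and 3, chosen after seeing the data, gave 0.11. The count of genes past the test, 20 in the main setting (9 higher, 11 lower; 8 and 6 when scaled by median ratios, 7 and 16 when quantile-normalized), was 21 with the replicate block, 7 with a pseudocount of 0.01, 0 without a filter (340 at an unadjusted p under 0.05), 10 at a mean FPKM of at least 5, 1 to 34 with a library left out and 0 with shNAT10 replicates 2 and 3 left out (1139). The cause was not tested. No pathway gene passed in any of these fits. The FAT1 peaks numbered 8 at an FDR under 0.01 and 6 beyond a log2 fold change of 1 in size. The site density, 4.10 per 1000 nt with every listed site counted, could not be recounted, because no genome sequence was used. The matching of coding length to other genes was not run for the same reason.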
